A study of Homo sapiens with 9 samples.

Results

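The 9 genes described here encode nuclear receptors of the steroid, retinoid and PPAR classes, namely ESR1, PGR, NR3C1, VDR, RARA, RARG, RXRA, PPARG and PPARD. The list was drawn up by name with earlier results of these data known, no measured value enters its rule, and all 9 were among the 26485 genes listed in the deposited tables. Their mRNA was measured by bulk RNA sequencing in MDA-MB-231, a human triple-negative breast cancer cell line, grown in DMEM with fetal bovine serum. The cells stably expressed a short hairpin RNA (shRNA), an RNA that is processed into a small RNA directing the loss of a matching mRNA. In the NS shRNA group the hairpin was nonspecific. In the ASAH1 shRNA #1 and ASAH1 shRNA #2 groups, separate hairpins targeted ASAH1, the lysosomal acid ceramidase that converts ceramide to sphingosine and a fatty acid. Each of the 3 groups held 3 libraries, which the study's methods call biological replicates. No receptor ligand is named as added in the labels, and whether each stable line was a pool or a clone is not given in the sources used here. The comparisons answered whether the receptor mRNAs differed between cells with an ASAH1 shRNA and cells with NS shRNA, and between the hairpins themselves.

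Nuclear receptors are transcription factors whose ligand-binding domain is controlled by small lipophilic molecules such as steroids, vitamin D, retinoic acid and fatty acids. Steroid receptors are held by heat shock protein chaperones until hormone binds, and then act mostly as homodimers. VDR, the RARs and the PPARs bind DNA as heterodimers with an RXR, exchanging corepressors for coactivators when ligand arrives. Breast cancers are classed by the estrogen and progesterone receptors, and triple-negative tumors lack both along with HER2.

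The libraries held 30989598 to 34867548 reads on genes with NS shRNA, 23806003 to 39791698 with ASAH1 shRNA #1 and 35653318 to 49659106 with ASAH1 shRNA #2. ASAH1 checked the labels. Its normalized count was 4436, 4512 and 4518 with NS shRNA and 1268, 1365 and 1348 with shRNA #1, in the table deposited for that comparison. In the table deposited for shRNA #2 the NS shRNA libraries held 4787, 4898 and 4871 and the shRNA #2 libraries 780, 807 and 762. ASAH1 was therefore at 0.296 and 0.161 of its NS shRNA level, and every ASAH1 shRNA library lay below every NS shRNA library. The markers of the mesenchymal-like line (VIM, CD44, AXL and CAV1) summed to 5075 to 5292 RPM (reads scaled to 1000000 reads on genes per library) with NS shRNA, 4673 to 4801 with shRNA #1 and 3754 to 3970 with shRNA #2. With each hairpin VIM and CAV1 were called lower, AXL higher and CD44 was not called. Of 6 markers of luminal breast epithelium, ESR1, PGR and FOXA1 had at most 10 reads in every library, and GATA3 and the keratins KRT8 and KRT18 were well expressed. The luminal sum ran from 773 to 835 RPM with NS shRNA, from 368 to 406 with shRNA #1 and from 580 to 663 with shRNA #2. With shRNA #1 these 3 genes were called lower, KRT8 with a log2 fold change of -1.50, whereas with shRNA #2 KRT8 was lower (-0.77), GATA3 higher (0.25) and KRT18 not called (0.15). Of the endothelial markers, PECAM1 was at 93.2 to 108 normalized counts with NS shRNA and was called lower with both hairpins (-0.59 and -0.91). The other, CDH5, had at most 3 reads in a library. The leukocyte markers summed to at most 0.258 RPM. The part of these marker shifts in the receptor results was not tested.

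The DNA that the RARs read together with RXR is shown on a pair of retinoic acid target genes. RAR and RXR heterodimers bind direct repeats of a hexamer, and a spacer of 5 bases (a DR5) is the classic retinoic acid response element. Among 35116 RefSeq promoter windows of build GRCh38.p14 (250 bases before to 50 after a gene start), a DR5 on either strand, each hexamer being AGGTCA or the variant AGTTCA, or else GGGTCA or its variant GGTTCA, was found in 0.0883%. Among the genes of the lists used here, RARB (retinoic acid receptor beta) and CYP26A1 (an enzyme that breaks down retinoic acid) held such a repeat, and their sites are printed because their transcripts are set beside those of the RARs below. Capitals mark the hexamers.
RARB, plus strand, chr3:25428210-25428226: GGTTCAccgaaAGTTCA
CYP26A1, minus strand, chr10:93073803-93073819: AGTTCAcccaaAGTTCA
The RARB site began 53 bases before a RefSeq start of the gene, which has other starts. In GENCODE the site lies inside the RARB gene, which starts upstream of it at chr3:24687887. Reads were counted per gene, so those of RARB cannot be assigned to this start. The 29 promoter windows of 8 of the 9 receptors (no window matched VDR) held no DR1, DR2, DR3, DR4 or DR5 of these hexamers. Each spacer was found in only 0.0399% to 0.131% of all windows, so absence from 29 does not set the receptors apart. The hexamer AGGTCA occurred in 4 of the 29, beside 13.8% of all windows, and the GC box GGGCGG, read on both strands, in 17 of the 29, beside 45.0% of all windows. Some windows of the same gene overlap and share a site. These are letter matches and no measurement of binding.

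Levels were set on a common scale as RPM divided by the kilobases of annotated exon. With NS shRNA, NR3C1, the glucocorticoid receptor, was highest at 17.3 ± 1.41 (SD, n = 3). PPARD, the PPAR found in most tissues, followed at 16.2 ± 1.62, and these 2 overlapped between libraries. RARA at 7.52 ± 0.656, RXRA at 7.32 ± 0.260 and RARG at 7.15 ± 0.176 formed the next step and also overlapped with each other, but not with PPARD above or PPARG below. PPARG at 3.71 ± 0.0829 and VDR at 3.62 ± 0.309 overlapped. PGR at 0.00346 and ESR1 at 0.00213 were orders of magnitude lower.

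**Figure D1:**
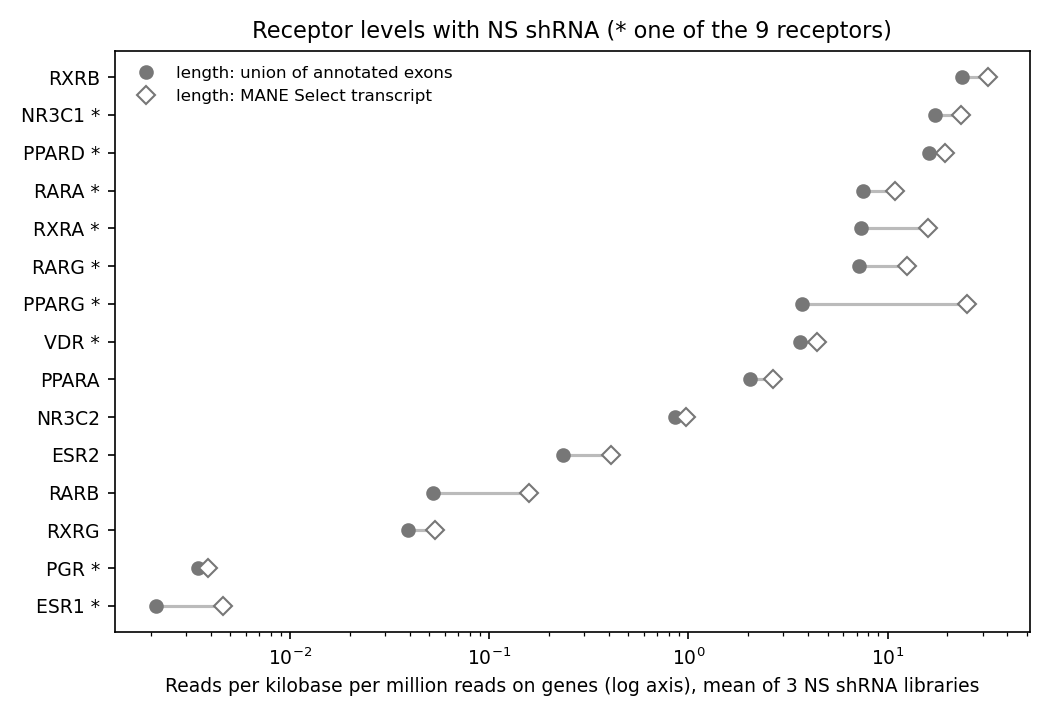
Mean level of each receptor over the 3 NS shRNA libraries, in RPM per kilobase on a log axis, with the 9 receptors starred and relatives shown for scale. Filled circles use the union of annotated exons as gene length and open diamonds the MANE Select transcript. ESR1 and PGR sit far below the rest, and PPARG is the receptor whose place depends most on the length used, 3.71 against 25.1.

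The order depended on the length chosen for a gene. With the length of the MANE Select transcript, an alternative added after seeing the data, PPARG rose from the sixth place to the first at 25.1 ± 0.560, since its annotated exons cover 11981 bases and that transcript 1774. In that order PPARG overlapped NR3C1 (23.3) between libraries. VDR stayed seventh at 4.45, and ESR1 and PGR stayed last. Length cancels when a gene is compared with itself, so none of the fold changes below depends on it. With shRNA #1 the order on the exon scale was PPARD (18.7), NR3C1 (17.1), RARA (11.1), RARG (6.07), RXRA (5.35), PPARG (4.65) and VDR (3.99). PPARD and NR3C1 overlapped between libraries there. With shRNA #2 the order was NR3C1 (17.0), PPARD (12.2), RARA (9.02), RARG (6.85), RXRA (6.33), VDR (3.33) and PPARG (2.90). On the exon scale RARA stood above RARG and RXRA with no overlap of libraries in both ASAH1 shRNA groups, whereas with NS shRNA these 3 overlapped. With MANE Select lengths RARA (10.9) was instead below RXRA (16.0) and RARG (12.6) with NS shRNA, without overlap, above both with shRNA #1, and overlapping both with shRNA #2 (13.1, beside 13.8 for RXRA).

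Each hairpin was then compared with NS shRNA within its own table, on the normalized counts deposited there (reads divided by a size factor per library). A gene was tested by limma if its mean was at least 10 in the 6 libraries, on log2(count + 1), and called below an adjusted p of 0.05. Of the 9 receptors, 7 could be tested. With shRNA #1, 2 were called higher (RARA and PPARG), 2 lower (RARG and RXRA) and 3 were not called. In the same comparison 66.1% of all 14341 genes tested were called, 32.8% higher and 33.3% lower. With shRNA #2, 1 receptor was called higher (RARA), 2 lower (PPARG and PPARD) and 4 were not called, beside 66.9% of 14250 genes, 33.5% higher and 33.4% lower. By these counts the receptors did not stand out from genes at large. The median of the receptors tested was 0.13 with shRNA #1 and 0.018 with shRNA #2 on the log2 scale, beside 0.0013 and 0.013 over all genes tested. The 3 NS shRNA libraries are shared by these comparisons, so the values are set side by side and not taken as independent. RNA was from whole cultures, so fewer cells with a transcript and less of it per cell cannot be told apart. For 3 against 3 libraries the smallest p of an exact permutation test is 0.1, so the calls rest on the spread pooled across genes. Each group carried 1 hairpin, NS shRNA included, so within a comparison effects of ASAH1 loss, hairpin and cell line cannot be told apart.

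**Figure D2:**
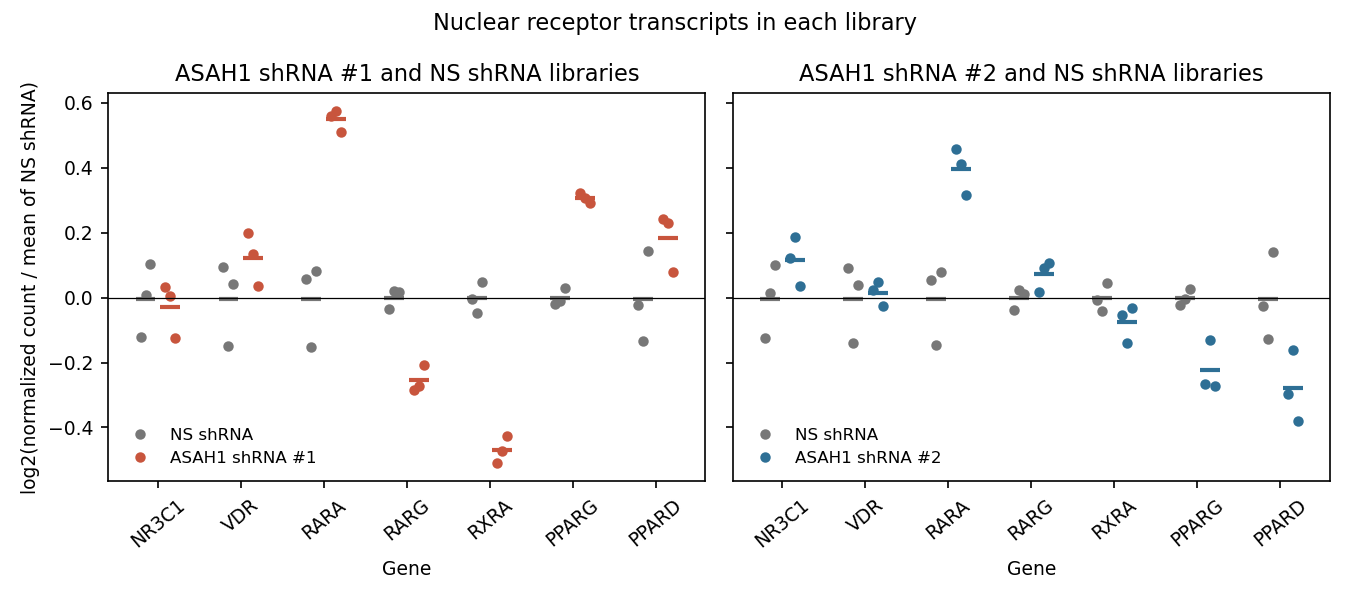
Normalized count of each tested receptor in each library, as log2 of its ratio to the NS shRNA mean, with 1 dot per library and a bar at the group mean. RARA lies above NS shRNA in all 3 libraries of each ASAH1 shRNA, RXRA and RARG lie below it with shRNA #1, and PPARG lies above it with shRNA #1 and below it with shRNA #2.

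The sex steroid receptors were close to absent. ESR1, the estrogen receptor alpha gene (chr6:151656691-152129619, plus strand of hg38, 8 exons in its MANE Select transcript), had 0, 1 and 2 reads with NS shRNA. It had 2, 0 and 0 reads with shRNA #1 and 0, 1 and 0 with shRNA #2, which makes 6 reads over the 9 libraries. PGR, the progesterone receptor gene and itself a classic estrogen target (chr11:101029624-101129813, minus strand, 8 exons), had 2, 1 and 2 reads with NS shRNA, 2, 0 and 0 with shRNA #1 and 0, 0 and 0 with shRNA #2. No library exceeded 2 reads for either gene, below the limit of 3 reads that a count of 0 allows, so no fold was computed and neither gene was tested. Without the filter on low values PGR passed the threshold with shRNA #2 by limma (adjusted p = 0.0164), on 5 reads against 0, and missed it by edgeR (adjusted p = 0.0890), an alternative added after seeing the data. ESR1 with either hairpin and PGR with shRNA #1 passed by neither tool (adjusted p = 0.322 to 0.824).

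NR3C1 (chr5:143277931-143435512, minus strand, 9 exons) encodes the glucocorticoid receptor, which binds cortisol. Its normalized counts were 4697, 5134 and 5493 with NS shRNA and 5224, 5130 and 4687 with shRNA #1, so the groups covered nearly the same range. The means were 5108 ± 398 and 5014 ± 287 (SD, n = 3), a log2 fold change of -0.025 (SE 0.067, limma adjusted p = 0.754). In the other table NS shRNA held 5068, 5573 and 5922 and shRNA #2 held 6009, 6289 and 5654. Here 2 of the 3 shRNA #2 libraries exceeded every NS shRNA library and the third fell within their range. The log2 fold change was 0.12 (SE 0.069, limma adjusted p = 0.152), which did not pass the threshold. The difference was called when NS shRNA replicate 3, the highest of its group, was left out (0.17, limma adjusted p = 0.0464).

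VDR (chr12:47841537-47943048, minus strand, 10 exons) encodes the vitamin D receptor. Its counts were 708, 599 and 683 with NS shRNA and 761, 729 and 680 with shRNA #1, with 2 of the shRNA #1 libraries above all of the NS shRNA libraries. The log2 fold change was 0.13 (SE 0.081, limma adjusted p = 0.193). With shRNA #2 the counts of 728, 741 and 704 stood inside the NS shRNA range of 650 to 763, and the log2 fold change was 0.018 (SE 0.081, limma adjusted p = 0.853). VDR was the tested receptor with the smallest fitted change with shRNA #2, and under upper quartile scaling it was at -0.027, beside a median of all genes of -0.032.

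RARA (chr17:40309180-40357643, plus strand, 9 exons), encoding retinoic acid receptor alpha, was called higher with each hairpin. It was at 1199, 1037 and 1220 with NS shRNA and at 1700, 1716 and 1642 with shRNA #1. The groups were separated by a wide gap, and the 3 shRNA #1 libraries lay close together at 1686 ± 38.7. RARA was upregulated 1.47-fold, a log2 fold change of 0.55 (SE 0.070, limma adjusted p = 9.02e-05). In the other table it was at 1294, 1126 and 1315 with NS shRNA and at 1710, 1657 and 1550 with shRNA #2. Again all libraries with the ASAH1 hairpin were above all NS shRNA libraries, with replicate 2 the lowest of the NS shRNA group. RARA was upregulated 1.32-fold, a log2 fold change of 0.40 (SE 0.077, limma adjusted p = 0.000941).

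RARG (chr12:53210567-53232980, minus strand, 10 exons) encodes retinoic acid receptor gamma, the RAR most abundant in epithelial tissue such as skin. Its counts were 1155, 1200 and 1198 with NS shRNA and 972, 981 and 1025 with shRNA #1, so every shRNA #1 library was lower. RARG was at 0.838 of its NS shRNA level, a log2 fold change of -0.26 (SE 0.055, limma adjusted p = 0.00261). With shRNA #2 it was at 1295, 1365 and 1380 against 1247, 1303 and 1292 with NS shRNA. The ranges overlapped, and the log2 fold change of 0.072 (SE 0.062, limma adjusted p = 0.323) did not pass.

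RXRA (chr9:134317098-134440585, plus strand, 10 exons), the shared partner of VDR, the RARs and the PPARs, showed the largest decrease among the receptors with shRNA #1. It was at 2849, 2765 and 2954 with NS shRNA and at 2004, 2058 and 2124 with shRNA #1. The groups were far apart beside their spread, 2856 ± 94.7 against 2062 ± 60.2. RXRA was downregulated to 0.722 of its NS shRNA level, a log2 fold change of -0.47 (SE 0.051, limma adjusted p = 3.03e-05). With shRNA #2 its counts of 2972, 2800 and 3020 overlapped those of NS shRNA, 3074, 3001 and 3184, and the log2 fold change was -0.075 (SE 0.057, limma adjusted p = 0.267). Scaling by the total of reads in place of size factors shifted the median of all genes to -0.12 with shRNA #2. On that scale RXRA was at -0.21 with no overlap of libraries, and NR3C1, VDR and RARG were at -0.018, -0.12 and -0.061, none of them below that median. RARA stayed above NS shRNA on that scale, at 0.26.

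PPARG (chr3:12287368-12434356, plus strand, 8 exons), encoding the PPAR known as the master regulator of fat cell differentiation, was called in opposite directions with the hairpins. Its counts were 1416, 1427 and 1467 with NS shRNA and 1798, 1778 and 1759 with shRNA #1. Both groups were tight, at 1437 ± 26.9 and 1778 ± 19.6, and did not overlap. PPARG was upregulated 1.24-fold, a log2 fold change of 0.31 (SE 0.049, limma adjusted p = 0.000404). With shRNA #2 it was at 1291, 1419 and 1285 against 1528, 1549 and 1582 with NS shRNA. All 3 shRNA #2 libraries were lower, replicate 2 being the nearest to the NS shRNA range. PPARG was at 0.857 of its NS shRNA level, a log2 fold change of -0.22 (SE 0.065, limma adjusted p = 0.0108).

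PPARD (chr6:35342558-35428191, plus strand, 8 exons) encodes PPAR delta, a fatty acid sensor that promotes fat oxidation. It was at 2298, 2131 and 2581 with NS shRNA and at 2767, 2742 and 2467 with shRNA #1. The highest NS shRNA library, replicate 3, lay above the lowest shRNA #1 library, also labelled replicate 3. The log2 fold change was 0.19 (SE 0.077, limma adjusted p = 0.0538), just outside the threshold. It was 0.26 (limma adjusted p = 0.00499) without NS shRNA replicate 3 and 0.24 (limma adjusted p = 0.0202) without shRNA #1 replicate 3. With shRNA #2 the counts were 2056, 2259 and 1941 against 2480, 2313 and 2782 with NS shRNA, all lower. PPARD was at 0.827 of its NS shRNA level, a log2 fold change of -0.27 (SE 0.082, limma adjusted p = 0.0125).

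The hairpins were compared directly on reads recovered from the normalized counts of all 9 libraries, with edgeR's quasi-likelihood test and TMM scaling. Because NS shRNA enters both effects alike, this comparison is also the test of whether the 2 effects differed. Of the 7 receptors tested, 2 were higher with shRNA #2, 3 were lower and 2 were not called. Among 14381 genes tested 63.9% were called, 31.4% higher with shRNA #2 and 32.5% lower. RXRA and RARG were higher with shRNA #2 by 0.38 (SE 0.050, edgeR adjusted p = 4.47e-05) and 0.32 (SE 0.053, edgeR adjusted p = 0.000282) on the log2 scale. PPARG differed most of the receptors, with a log2 ratio of shRNA #2 over shRNA #1 of -0.54 (SE 0.054, edgeR adjusted p = 4.88e-06), and PPARD had a ratio of -0.47 (SE 0.079, edgeR adjusted p = 0.000285). The 2 PPARs were thus both lower with shRNA #2 than with shRNA #1, and RARG and RXRA both higher. RARA had a ratio of -0.17 (SE 0.066, edgeR adjusted p = 0.0452), which passed the threshold narrowly and did not pass it when any of 5 of the 6 hairpin libraries, all but shRNA #2 replicate 1, was left out (edgeR adjusted p = 0.0608 to 0.150). NR3C1 had a ratio of 0.13 (SE 0.066, edgeR adjusted p = 0.105) and VDR of -0.12 (SE 0.072, edgeR adjusted p = 0.160).

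**Figure D3:**
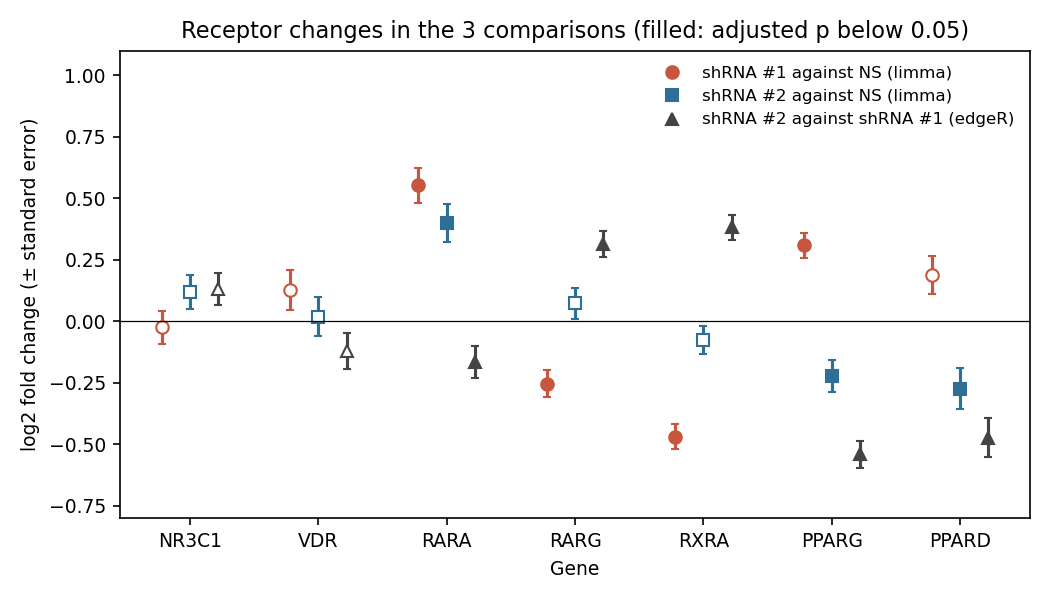
log2 fold change with its standard error for the 7 tested receptors in the 3 comparisons, filled where the adjusted p was below 0.05. RARA is filled and positive against NS shRNA with both hairpins (0.55 and 0.40), whereas PPARG is filled on opposite sides of 0 (0.31 and -0.22).

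The genes with profiles most like those of the receptors were found among 11630 genes as the smallest root mean square difference of centred log2 profiles over the 9 libraries, as a description. For RARA these were LOXL1-AS1, GLI3 and MTPAP, at 0.040 to 0.047 beside a spread of RARA itself of 0.24. For RARG they were MORF4L1, UPRT and CAPZA2, and for RXRA they were LMNB2, ERCC3 and NPR2. For PPARG they were EZH1, C2orf44 and RHOQ, at 0.032 to 0.033 beside a spread of 0.22, and for PPARD they were GTDC1, HLCS and PRKAB1. For NR3C1 they included ARHGAP12 and KDM5A, and for VDR they were LOC90784, ZDHHC13 and DNAJC1. No receptor was among the 3 nearest genes of another.

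Other genes of receptor pathways were followed as lists, each to be read against the 66.1% (shRNA #1) and 66.9% (shRNA #2) of all genes that were called, about evenly in each direction. The other receptors of the same classes included genes with larger changes than any of the 9. Of 7 relatives, 5 were tested. With shRNA #1, 2 were called higher and 0 lower, and with shRNA #2, 3 were higher and 2 lower, with medians of -0.088 and 0.41. NR3C2, the mineralocorticoid receptor and closest relative of NR3C1, was at 185, 181 and 182 with NS shRNA and at 415, 427 and 355 with shRNA #1, a log2 fold change of 1.12 (SE 0.094, limma adjusted p = 6.16e-06). With shRNA #2 it was at 31.3, 40.8 and 32.6 against 200, 196 and 196 with NS shRNA, a log2 fold change of -2.48 (SE 0.15, limma adjusted p = 3.34e-07). The hairpins thus separated NR3C2 completely and on opposite sides of NS shRNA, while NR3C1 overlapped NS shRNA with each. ESR2, estrogen receptor beta, rose with both hairpins, by 0.89 (limma adjusted p = 0.00121) and 1.18 (limma adjusted p = 6.77e-05) on the log2 scale, from a mean of 90.1 with NS shRNA.

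RARB, whose DR5 is printed above, had 15, 15 and 19 reads with NS shRNA, 13, 13 and 19 with shRNA #1 and 71, 101 and 108 with shRNA #2. Only the shRNA #2 libraries stood apart. The log2 fold change was -0.088 (SE 0.30, limma adjusted p = 0.812) with shRNA #1 and 2.25 (SE 0.20, limma adjusted p = 4.06e-06) with shRNA #2, and the hairpins differed by 2.39 (edgeR adjusted p = 3.94e-06). CYP26A1, the other gene with a DR5, had 3, 6 and 0 reads with NS shRNA, 1, 1 and 1 with shRNA #1 and 0, 0 and 0 with shRNA #2, too few to test. PPARA, the third PPAR, was at -0.21 (limma adjusted p = 0.0658, or -0.30 and 0.0219 without NS shRNA replicate 2) with shRNA #1 and rose by 0.41 (limma adjusted p = 0.00308) with shRNA #2. PPARA thus differed between the hairpins in the direction opposite to PPARG and PPARD, with a log2 ratio of shRNA #2 over shRNA #1 of 0.61 (edgeR adjusted p = 0.00012).

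Among 12 other nuclear receptors, all tested, 4 were called higher and 8 lower with shRNA #1 (median -0.86), and 5 higher and 6 lower with shRNA #2 (median -0.088). NR1D1 and NR1D2, the heme-binding repressors of the circadian clock, rose with both hairpins. NR1D1 had means of 585 ± 47.6 with NS shRNA and 2437 ± 63.4 with shRNA #1, a 4.17-fold change (limma adjusted p = 2.44e-08), and rose 4.22-fold with shRNA #2 (limma adjusted p = 1.62e-08). NR1D1 lies opposite THRA on the other strand, and counting was stated to use strand. NR1D2 rose by 0.87 and 0.89 on the log2 scale (limma adjusted p = 2.48e-06 and 1.47e-06). The oxysterol receptors, which pair with RXR, fell with both hairpins, NR1H3 with log2 fold changes of -1.01 and -1.25 (limma adjusted p = 2.02e-05 and 3.56e-07) and NR1H2 with -0.86 and -0.76 (limma adjusted p = 3.30e-07 and 8.12e-07). NR2F2 and NR2F6, orphan receptors of the COUP-TF family, also fell, with log2 fold changes of -1.02 and -1.08 with shRNA #1 and -0.48 for each with shRNA #2. NR2F1, the third gene of that family and named here after its values were seen, was lower with shRNA #1 (-0.34, limma adjusted p = 0.0338) and higher with shRNA #2 (0.45, limma adjusted p = 0.00639). Its call with shRNA #1 was lost with no filter (limma adjusted p = 0.0707), by DESeq2 (DESeq2 adjusted p = 0.0811) and without NS shRNA replicate 1 or 3 or shRNA #1 replicate 1 or 2 (limma adjusted p = 0.0569 to 0.123).

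Coregulators carry the receptors' signal to chromatin. Of 13, all tested, 8 were higher and 1 lower with shRNA #1 (median 0.26), and 5 higher and 1 lower with shRNA #2 (median 0.22). The share called was thus 69.2% and 46.2%, near and below that over all genes. TBL1XR1, a part of a corepressor complex, rose by 0.26 with shRNA #1 (limma adjusted p = 0.00207) and by 1.34 with shRNA #2 (limma adjusted p = 1.73e-08), a difference between hairpins of 1.07 (edgeR adjusted p = 1.51e-08). NCOA3, a coactivator amplified in some breast cancers, rose by 0.22 (limma adjusted p = 0.0235) and 0.68 (limma adjusted p = 2.11e-05). The NCOA3 call with shRNA #1 was lost by limma without the trend (limma adjusted p = 0.0632) and without NS shRNA replicate 1 or 2 or shRNA #1 replicate 1 or 2 (limma adjusted p = 0.0744 to 0.0984).

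The chaperones that hold steroid receptors ready were among the abundant transcripts. Of 6, 4 were higher and 2 lower with shRNA #1 (median 0.28), and 5 were higher and 0 lower with shRNA #2 (median 0.48). HSP90AA1, the inducible HSP90, fell with shRNA #1, from a mean of 39250 to 30150 (log2 fold change -0.38, limma adjusted p = 0.000158), and rose with shRNA #2, from 42430 to 60420 (0.51, limma adjusted p = 2.85e-05). HSP90AB1, the constitutive form, rose with both hairpins, by 0.37 and 0.67 (limma adjusted p = 0.000265 and 2.63e-06). Both HSP90 genes have near-identical pseudogene copies, so the way reads were shared among copies makes their counts uncertain. FKBP4, a cochaperone that favors hormone binding, rose by 0.48 (limma adjusted p = 3.53e-05) and 1.05 (limma adjusted p = 9.50e-08).

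Target genes were followed by receptor. Of 11 glucocorticoid receptor targets 10 were tested, of which 7 were higher and 2 lower with shRNA #1 (median 0.31), and 5 higher and 3 lower with shRNA #2 (median 0.28). FKBP5, a cochaperone that restrains the receptor and a standard readout of its activity, was at 1701, 1584 and 1746 with NS shRNA and 2954, 2998 and 2742 with shRNA #1, a rise of 0.79 on the log2 scale (limma adjusted p = 2.81e-06). With shRNA #2 FKBP5 overlapped NS shRNA (0.053, limma adjusted p = 0.553), and the hairpins differed by -0.75 (edgeR adjusted p = 3.07e-06). TSC22D3, the glucocorticoid-induced leucine zipper gene, showed the other order, with rises of 0.25 (limma adjusted p = 0.0231) and 1.49 (limma adjusted p = 2.07e-07), the first of which was lost without NS shRNA replicate 3 or shRNA #1 replicate 2 or 3 (limma adjusted p = 0.0637 to 0.0792). SGK1, a kinase gene induced by glucocorticoids and mineralocorticoids, rose by 0.37 with shRNA #1 (limma adjusted p = 0.000144) and had a log2 fold change of -0.62 with shRNA #2 (limma adjusted p = 1.53e-05).

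DUSP1, the gene of a MAP kinase phosphatase, rose with both hairpins, by 1.72 and 1.12 on the log2 scale (limma adjusted p = 2.27e-08 and 3.05e-07). The clock gene PER1 rose by 1.22 and 0.54 (limma adjusted p = 4.03e-06 and 0.00211), and ERRFI1, whose product inhibits the EGF receptor, by 1.13 and 0.31 (limma adjusted p = 1.06e-07 and 0.00087). CEBPD, a C/EBP transcription factor gene, fell, with log2 fold changes of -1.16 and -0.995 (limma adjusted p = 1.82e-06 and 3.28e-06). Genes of this list moved in different directions, and all of them have other known regulators. The part of the receptor in these changes was not tested.

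For VDR, 7 target and vitamin D handling genes were followed. With shRNA #1, 5 were tested, 1 higher and 2 lower (median -0.42). With shRNA #2, 4 were tested, 0 higher and 3 lower (median -0.64). CYP24A1, the vitamin D degrading enzyme and the most responsive known VDR target, was at 69.1, 65.8 and 49.9 with NS shRNA and at 112, 137 and 99.0 with shRNA #1, a rise of 0.91 (SE 0.18, limma adjusted p = 0.00142). With shRNA #2 it was at 4.31, 8.75 and 16.3 against 74.5, 71.4 and 53.8, a log2 fold change of -2.80 (SE 0.39, limma adjusted p = 0.000102), or -3.22 to -2.37 with a library left out. CYP24A1 thus stood above every NS shRNA library with shRNA #1 and below every one with shRNA #2, while VDR itself overlapped NS shRNA with each. CD14, an endotoxin coreceptor gene, fell with shRNA #1 from a mean of 969 to 218 (log2 fold change -2.14, limma adjusted p = 1.06e-07) and overlapped NS shRNA with shRNA #2 (0.098, limma adjusted p = 0.356). CYP27B1, which makes active vitamin D, was at -0.42 (limma adjusted p = 0.112) and -0.79 (limma adjusted p = 0.00514). It overlaps METTL1 on the same strand, so its reads are uncertain, and without shRNA #1 replicate 3 its change with shRNA #1 was called (-0.58, limma adjusted p = 0.0483).

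Of 14 retinoid handling and retinoic acid target genes 7 were tested, of which 3 were higher and 3 lower with shRNA #1 (median -0.088), and 3 higher and 4 lower with shRNA #2 (median -0.32). CRABP2, which carries retinoic acid to the RARs, rose by 0.60 (limma adjusted p = 0.00274) and 1.18 (limma adjusted p = 5.29e-06). TGM2, tissue transglutaminase and a retinoic acid target, fell from a mean of 33470 to 17210 with shRNA #1 and from 36170 to 10900 with shRNA #2, with log2 fold changes of -0.96 and -1.73 (limma adjusted p = 4.72e-07 and 8.75e-09). DHRS3, a retinaldehyde reductase, had log2 fold changes of -0.89 and -0.75 (limma adjusted p = 3.55e-06 and 9.64e-06). RARA rose with both hairpins, and genes of this list were called in both directions. Whether RARA had a part in their changes was not tested.

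Of 11 PPAR target genes 8 were tested, of which 2 were higher and 3 lower with shRNA #1 (median -0.079), and 2 higher and 5 lower with shRNA #2 (median -0.40). PLIN2, a lipid droplet coat protein, was at 2705, 2985 and 2541 with NS shRNA and at 9833, 10100 and 10640 with shRNA #1, a 3.72-fold rise (limma adjusted p = 2.44e-08). With shRNA #2 it was at 6782, 6727 and 7149 against 2919, 3241 and 2740, a 2.33-fold rise (limma adjusted p = 1.74e-07). PLIN2 was thus higher with both hairpins, whereas PPARG was called in opposite directions. Any link between these genes was not tested. CPT1A, the gate of fatty acid entry into mitochondria, rose by 0.59 and 0.54 (limma adjusted p = 1.63e-05 and 1.09e-05). Catalase (CAT) fell, with log2 fold changes of -1.18 and -1.40 (limma adjusted p = 1.80e-06 and 3.97e-07). PDK4, a brake on pyruvate oxidation, was at -0.14 (limma adjusted p = 0.243) and -0.55 (limma adjusted p = 0.00319).

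Of 8 estrogen receptor target genes, PGR included, 5 were tested, of which 2 were higher and 1 lower with shRNA #1 (median 0.32), and 3 higher and 2 lower with shRNA #2 (median 0.69). These changes stood beside an ESR1 transcript at 2 reads or fewer in every library and an ESR2 transcript called higher with both hairpins (0.89 and 1.18). Whether either receptor had a part in them was not tested. GREB1, an estrogen-induced gene, had means of 40.2 with NS shRNA and 67.6 with shRNA #1 (log2 fold change 0.76, limma adjusted p = 0.00833) and of 43.4 and 14.2 in the shRNA #2 table (-1.59, limma adjusted p = 0.00138). XBP1, an unfolded protein response factor, rose by 0.94 and 1.61 (limma adjusted p = 3.37e-06 and 9.39e-08). IGFBP4, an IGF-binding protein gene, fell, with log2 fold changes of -1.51 and -0.88 (limma adjusted p = 3.30e-07 and 9.54e-06). CCND1, cyclin D1, was at 0.055 (limma adjusted p = 0.255) and rose by 0.79 with shRNA #2 (limma adjusted p = 2.42e-07). TFF1 had at most 6 reads in a library.

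**Figure D4:**
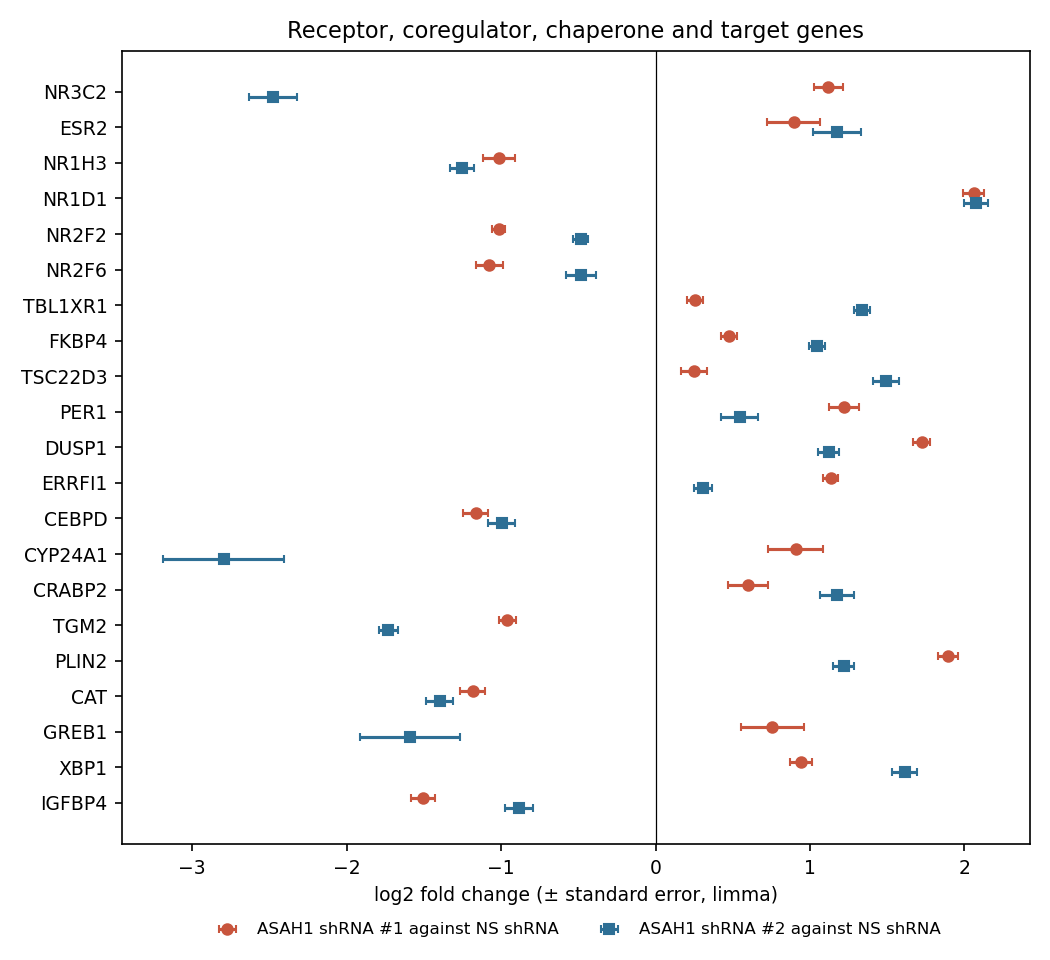
log2 fold change with its standard error against NS shRNA for 21 list genes called with both hairpins and changed by at least 1 on the log2 scale with either. NR3C2, CYP24A1 and GREB1 lie right of 0 with shRNA #1 and left of it with shRNA #2.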

How the data were processed

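RNA from 9 libraries was sequenced as single reads of 76 bases from oligo-dT selected, strand-specific libraries. Per the labels and the methods, the authors used Trimmomatic 0.36 for trimming, STAR 2.7.1a for alignment to hg38, HTSeq for counting on UCSC genes (reverse strand) and DESeq2 1.28 for normalization, separately for each ASAH1 shRNA. Elsewhere the methods describe Bowtie2 and RSEM with TMM in edgeR, and the series' design text names ribosomal depletion in place of oligo-dT. The deposited signal is a read count divided by a size factor, and the NS shRNA libraries therefore have other values in each table. The authors' fold changes and p-values in the tables were not used. No column was left unmatched to a library.

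Here, 28 gene symbols that a spreadsheet had turned into dates were taken from the other table, and the reads were recovered (100.0% of values whole within 0.01, with 0 differences between tables). The software was DESeq2 1.42.0, edgeR 4.0.16 and limma 3.58.1 in R 4.3.3, then matplotlib 3.10.9 and pandas 2.3.3 in Python 3.11.15. limma (two-sided, trend on intensity) took log2(value + 1) of genes whose mean reached 10, and edgeR took genes whose mean reached 10 reads, both with Benjamini-Hochberg adjustment at 0.05 over all genes tested. Both were tested on simulated data. A fold change on the log2(value + 1) scale understates the change of low genes. Gene positions and exon lengths came from GENCODE 44 and promoters from RefSeq on GRCh38.p14. The counting annotation was another, so levels per length are approximate. The floor of 3 reads covers counting error only, whereas the SDs and standard errors rest on the spread between libraries.

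The receptors and the gene lists were chosen with earlier results of these data known. Named genes are the 9 receptors, ASAH1, the list genes called with both hairpins and changed by at least 1 on the log2 scale with either, up to 2 more genes of each list, and NR2F1, which were picked after their values were seen, and the 3 genes nearest to each receptor in profile (mean of at least 100 reads). Some genes that these rules name are not reported here. The alternatives were pseudocounts of 0.1 and 5, a mean of at least 50, no filter, limma without the trend, upper quartile scaling, the other tools, the replicate block and leaving out each library.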

Additional observations from a re-analysis of the deposited data

Results flagged for a closer look

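For 5 of the 7 receptors tested the effects of the hairpins differed from each other. The test was edgeR's, of shRNA #2 against shRNA #1 on all 9 libraries, and it called 63.9% of all 14381 genes tested. The log2 ratio of shRNA #2 over shRNA #1 was -0.54 for PPARG (edgeR adjusted p = 4.88e-06), -0.47 for PPARD, 0.38 for RXRA, 0.32 for RARG and -0.17 for RARA. Of these 5, the RARA ratio lost its call under some of the alternatives and the other 4 kept theirs under all that were run.

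Among other receptors the same test found ratios of -3.64 for NR3C2, 2.39 for RARB, 0.61 for PPARA, 0.52 for NR2F2, 0.58 for NR2F6, 0.78 for NR2F1 and -0.25 for NR1H3 (edgeR adjusted p = 0.0414). The NR1H3 ratio lost its call by DESeq2 (DESeq2 adjusted p = 0.0508), with no filter (edgeR adjusted p = 0.0556), in a fit of the 6 hairpin libraries alone (edgeR adjusted p = 0.0845) and when any library except shRNA #1 replicate 2 was left out, ranging from -0.37 without that library to -0.16 without shRNA #1 replicate 3.

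Among coregulators and chaperones it found 1.07 for TBL1XR1, 0.45 for NCOA3, 0.88 for HSP90AA1, 0.29 for HSP90AB1, 0.56 for FKBP4 and -0.75 for FKBP5. Among the other glucocorticoid receptor targets it found 1.23 for TSC22D3, -0.69 for PER1, -1.01 for SGK1, -0.61 for DUSP1 and -0.83 for ERRFI1. Among vitamin D and retinoid genes it found -3.60 for CYP24A1, 2.23 for CD14, 0.55 for CRABP2 and -0.78 for TGM2. The CYP24A1 ratio was -4.23 without shRNA #2 replicate 3, which held the most CYP24A1 reads of its group, and -3.29 without shRNA #2 replicate 1. Among PPAR and estrogen receptor targets it found -0.43 for PDK4, -0.69 for PLIN2, -2.32 for GREB1, 0.66 for XBP1, 0.72 for CCND1 and 0.61 for IGFBP4. All of these passed the threshold in a comparison in which 63.9% of the genes tested did.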

How the results depend on the processing

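The 40 main results (calls and fold changes of the receptors and ASAH1, and counts) were recomputed under other pseudocounts, filters, scalings and tools, with the replicate number as a block and with each library left out. Of these, 31 held the same direction and call throughout or, for counts, stayed within a fixed tolerance. Within it, the receptors called higher with shRNA #1 numbered 2 to 3. Those lower with shRNA #2 than with shRNA #1 numbered 2 to 4. PPARD with shRNA #1 crossed the threshold under upper quartile scaling (log2 fold change 0.20, limma adjusted p = 0.0432), DESeq2 (0.19, DESeq2 adjusted p = 0.0411) and 1 limma fit of all 9 libraries (0.20, limma adjusted p = 0.0452), and ran from 0.12 to 0.26 with a library left out. Leaving out a library moved NR3C1 from -0.084 to 0.029 with shRNA #1 and from 0.058 to 0.17 with shRNA #2, so that the receptors called higher with shRNA #2 numbered 1 to 2. VDR with shRNA #2 turned to -0.027 under upper quartile scaling and ran from -0.051 to 0.066 with a library left out, and its ratio between hairpins reached -0.20 under upper quartile scaling (edgeR adjusted p = 0.0308). That scaling moved the median of all genes to -0.032 with shRNA #2 and to -0.08 between hairpins. The RARA ratio between hairpins lost its call with no filter (-0.15, edgeR adjusted p = 0.0786) and ran from -0.20 to -0.13 with a library left out. Same-numbered libraries did not as a set deviate together (r from -0.73 to 0.62, against -0.54 to 0.65 for different numbers). Between NS shRNA and either hairpin the same-numbered pairs were all negative (-0.73 to -0.17). Between the hairpins they were all positive (0.034, 0.26 and 0.62), against -0.54 to 0.35 for different numbers. As a set these values show no pairing by number, and with 3 libraries per group they cannot exclude one. With the replicate block the calls over all genes went from 9479 to 8237, 9538 to 8526 and 9188 to 8590, the receptors lower with shRNA #2 numbered 1 (3 with no filter, PGR added), PPARG with shRNA #2 missed the threshold (-0.22, limma adjusted p = 0.0512), as did the RARA ratio (-0.17, edgeR adjusted p = 0.0736), the NR1H3 ratio (edgeR adjusted p = 0.0619), and with shRNA #1 NCOA3, TSC22D3 and NR2F1 (limma adjusted p = 0.0795, 0.0741 and 0.0607). Of 111 further results on list genes, 98 kept direction and side. With a library left out RARB with shRNA #1 ran from -0.22 to 0.15, FKBP5 with shRNA #2 from -0.014 to 0.11, and the ratios between hairpins of NR1D1 from -0.023 to 0.059 and of NR1D2 from -0.017 to 0.036. Those of NR1D1 and NR1D2 were -0.069 and -0.072 under upper quartile scaling and -0.0069 and -0.0103 with a mean of at least 50 reads. The causes were not tested. ESR1 and PGR had at most 2 reads in a library, so depth and absence of transcript cannot be told apart for them.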
